A study of Mus musculus with 18 samples.

Results

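The response to lipopolysaccharide (LPS) was examined in bone marrow-derived macrophages (BMMs) that overexpress GILZ, the glucocorticoid-induced leucine zipper encoded by Tsc22d3. The libraries were chosen by the genotype GILZ TG in their labels, which gave 6 of the 18 libraries of the series, 3 from untreated cells and 3 from cells given 100 ng/ml LPS for 4 h. GILZ TG mice are C57BL/6J animals with a Gilz cDNA at the ROSA26 locus behind a floxed stop, which Cre recombinase expressed from the Lyz2 locus removes in myeloid cells. WT mice, given in the methods as Lyz2-Cre mice, and GILZ KO mice, in which the same Cre deletes a floxed part of Gilz, are used only where the response of GILZ TG is set beside theirs. All mice were female and 10 to 23 weeks old, and bone marrow cells were cultured with 50 ng/ml M-CSF for 6 days. The preparations of each genotype are numbered 1 to 3. The study describes them as independent preparations from separate mice, while the labels do not tie libraries to mice.

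LPS, a lipid of the outer membrane of gram-negative bacteria, is bound by CD14 and the TLR4/MD-2 receptor. The receptor signals through the adaptor MyD88 to NF-kB and MAP kinases, and through TRIF to IRF3 and the type I interferons, which act back on the cell through their own receptor. GILZ is induced by glucocorticoids, binds NF-kB and AP-1 proteins, and is known to limit inflammatory gene expression in macrophages.

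The depth of the 6 libraries ranged from 20757976 to 38557029 reads, and the median was 26071297. Expected counts were tested with edgeR's quasi-likelihood test, and a gene passed where its p-value, adjusted after Benjamini and Hochberg over all 12672 genes tested, was under 0.05. Log2 fold changes are LPS minus untreated after TMM scaling, which sets the bulk of the genes near no change. TPM is a share of the transcripts of a library, so that a gene falls in TPM when others rise. On library totals, log2 fold changes were lower by 0.65, and values are therefore relative to this shift. Macrophage markers were high in all libraries, where 10 genes summed to between 5306.9 and 6097 TPM. After TMM scaling 8 of them passed the test as higher, as did 31% of all genes. The log2 fold changes of Cd68, Itgam and Mrc1 (0.27, 0.47 and 0.41) were below the shift of 0.65, so their direction depends on the scaling. Cd68 was at 1601, 1455 and 1348 TPM before and at 1168, 1215 and 1109 TPM after LPS. Among markers of other cells, the sums of the fibroblast, neutrophil and B cell lists followed the preparation. The 10 stromal fibroblast markers summed to 156, 182.5 and 15.7 TPM in untreated preparations 1, 2 and 3 and to 124, 173 and 15.3 TPM after LPS, and the 10 neutrophil markers to 203, 495 and 87.8 TPM and to 228, 525 and 98.7 TPM. None of the 9 and 7 of these genes that could be tested passed the test between LPS and untreated cells. The 7 B cell and plasma cell markers summed to 93.6, 157.8 and 36.1 TPM before and to 81.7, 149.4 and 26.0 TPM after LPS, and 1 of 4 tested, Cd79b, passed as lower (-0.50, adjusted p = 0.0322), but not without preparation 1 or 2 (adjusted p = 0.0789 and 0.29), LPS replicate 1 or 2, or untreated replicate 2 or 3. Single markers of other cells did move with LPS. Of 4 endothelial markers tested, Kdr, Cdh5 and Pecam1 passed as higher, and Kdr went from 2.07, 1.29 and 2.02 TPM to 4.86, 4.97 and 7.35 TPM (log2 fold change 2.30, standard error 0.24, adjusted p = 9.23e-05), while the sum of all 6 was between 18.4 and 25.5 TPM. Vwf, the most abundant of them, did not pass (-0.10, adjusted p = 0.666). It was at 20.6, 14.8 and 21.7 TPM before and at 10.4, 10.8 and 12.9 TPM after LPS. The osteoblast marker Runx2 passed as lower (-0.95, adjusted p = 0.00294), and the dendritic cell marker Clec9a passed as higher (2.50, adjusted p = 0.00132) at under 1 TPM in each library. The part of these cells in the LPS response was not tested. All erythroid, T cell, and mast cell and basophil markers were under 1 TPM in each library. In bulk RNA, fewer cells of a type and less RNA per cell cannot be told apart.

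Tsc22d3 (ENSMUSG00000031431, GRCm38 chrX:140539528-140600659) was at 156, 159.8 and 152 TPM in untreated GILZ TG cells and at 127, 141 and 127 TPM after LPS. All 3 LPS libraries lay below the untreated ones in TPM, while the log2 fold change was 0.31 after TMM scaling (standard error 0.06, adjusted p = 0.00187) and -0.34 on library totals, so that its direction depends on the scaling. Without preparation 2 the adjusted p was 0.0526. The counts do not separate the transgene from the endogenous gene. In WT cells Tsc22d3 lay at 15.8, 14.9 and 18.8 TPM without treatment and at 4.56, 5.81 and 5.09 TPM after LPS. Its log2 fold change there was -1.10, but 0.91 in GILZ KO cells (adjusted p = 0.00091 from edgeR). The difference of GILZ TG from GILZ KO was -0.59 and did not pass (adjusted p = 0.28 from edgeR). Lyz2, which encodes lysozyme and holds the Cre, was at 17.2, 28.7 and 53.1 TPM in untreated GILZ TG cells and at 22.1, 41.9 and 70.2 TPM after LPS. It was higher after LPS within each preparation, but the groups overlapped (1.04, adjusted p = 0.102), and with the preparation as a block the adjusted p was 2.64e-06. In WT, Lyz2 was at a mean of 12839.82 TPM without treatment, against 32.99 TPM in GILZ TG and 33.59 TPM in GILZ KO. The number of Cre alleles in each genotype is not given in the sources used here, so that between GILZ TG and WT a difference in Lyz2 and the transgene cannot be told apart.

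Of the 12672 genes tested, 8268 passed the threshold (65.2%), of which 3928 were higher after LPS (31%) and 4340 lower (34.2%). At least 2-fold higher were 1852 genes (14.6%) and at least 2-fold lower 1795 genes (14.2%). At least 4-fold higher were 996 genes and 469 lower, and 371 genes were at least 16-fold higher and 30 lower. The TPM of the LPS and untreated libraries did not overlap in 82.4% of all genes tested. The balance of directions depended on the scaling. With TMM 47.5% of the genes that passed were higher, but 18.2% on library totals, where 1916 genes were higher (15.1%) and 8624 lower (68.1%). On library totals, 1206 genes were at least 2-fold higher and 4275 lower, 695 at least 4-fold higher and 1134 lower, and 282 at least 16-fold higher and 68 lower, so that upward changes were the more numerous on both scales at 16-fold, and on TMM alone at 2-fold and 4-fold. Of the genes that passed, 1514 changed sign between both scales. Of the 1852 genes, 1758 still passed as higher on library totals. Of the 1852 genes, 247 share reads with other genes.

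**Figure D1:**
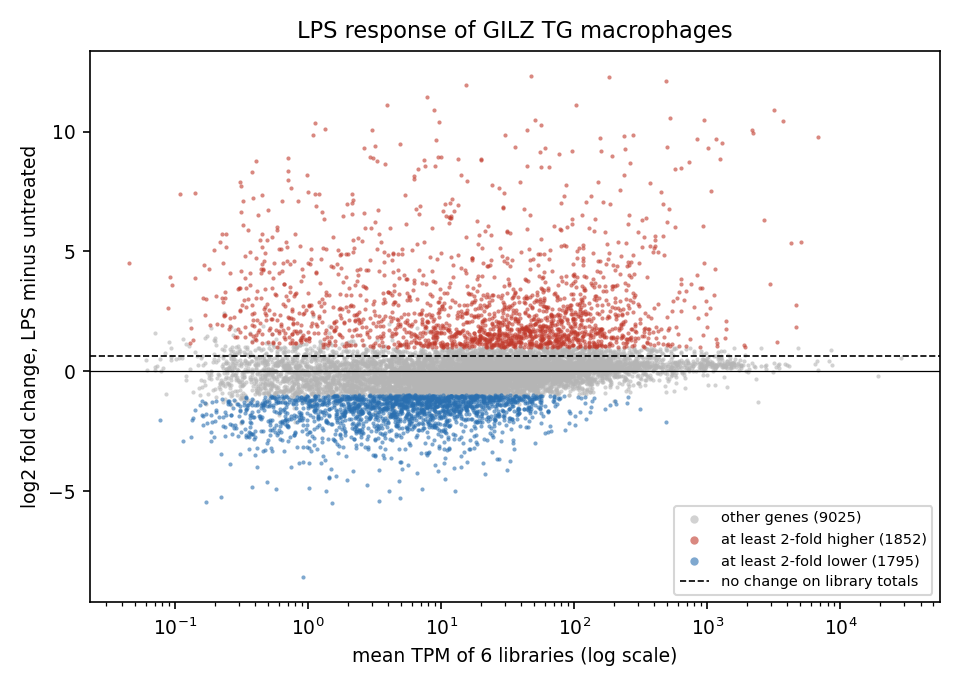
Log2 fold change of LPS against untreated GILZ TG BMMs (y axis, TMM scaling) over the mean TPM of the 6 libraries (x axis, log scale) for 12672 genes, 1 point each. Red points are the 1852 genes that passed the test and were at least 2-fold higher, blue points the 1795 at least 2-fold lower, and the dashed line at 0.65 marks no change on library totals. The points reach farther up than down.

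LPS moved the composition of the transcriptome. The 1852 genes at least 2-fold higher held 7.89, 7.72 and 8.32% of all TPM in untreated preparations 1 to 3 and 31.3, 31.0 and 35.1% after LPS. The 1795 genes at least 2-fold lower held 3.62, 3.63 and 3.49% before and 0.83, 0.92 and 0.74% after. These sets were chosen by the same comparison, so the shares describe them and test nothing. Of the higher genes, 386 were under 1 TPM in each untreated library, of which 50 reached at least 10 TPM in each LPS library. Under 1 TPM in each LPS library were 112 of the 1852. At 100 TPM or more were 526 of the higher genes in each LPS library and 161 in each untreated one. The lower genes were less abundant, with 37 of 1795 at 100 TPM or more in each untreated library and 0 in each LPS library. Chemokines took up much of the gain, as their 21 genes held 0.6, 0.62 and 0.87% of TPM before and 5.75, 5.70 and 7.08% after LPS. The 30 interferon and antiviral genes held 0.11, 0.1 and 0.1% before and 3.16, 3.03 and 3.06% after. The 20 genes of the cytokine list, which includes the receptor gene Cd40, held 0.03% in each library before and 0.92, 0.94 and 1.57% after.

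**Figure D2:**
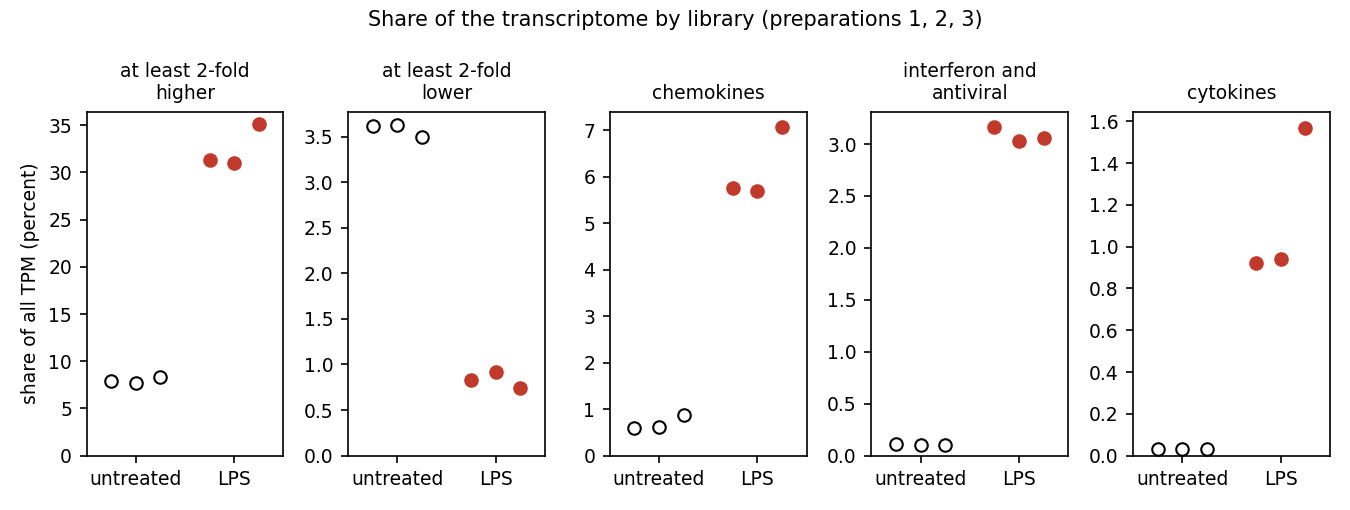
Share of all TPM (y axis, percent) held by 5 sets of genes in each GILZ TG library. Open points are untreated and filled points LPS libraries of preparations 1 to 3, from left to right. In preparation 3 after LPS the chemokine and cytokine lists held 7.08% and 1.57%, more than in preparations 1 and 2.

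Genes that receive and carry the LPS signal were mostly higher. Of 23 tested, 18 passed as higher and 3 as lower. The median log2 fold change was 0.93 against -0.035 over all genes. On library totals 12 were higher and 6 lower. Over all genes tested, 31% were higher and 34.2% lower, and 15.1% and 68.1% on library totals, which are the background for each list below. Cd14, which hands LPS to the receptor, was at 790.2, 839 and 992 TPM before and at 1367, 1289 and 1711 TPM after LPS (1.35, adjusted p = 0.000113). Tlr4 itself was at 34.9, 30.1 and 34.8 TPM before and at 32.2, 33.3 and 42.1 TPM after LPS, which overlapped, with a log2 fold change of 0.70 that was 0.04 on library totals. Map3k8, a kinase upstream of ERK, had the largest change of the list and went from 8.69, 8.48 and 9.61 TPM to 58.4, 61.5 and 62.4 TPM (log2 fold change 3.45, standard error 0.08, adjusted p = 3.3e-08). Myd88 rose by 2.59 and Irak2, a kinase of the MyD88 complex, rose by 2.78 on the log2 scale. Traf3, an adaptor on the way to interferon, fell by 1.09 and Irak4 fell by 0.58.

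All 16 NF-kB subunits and inhibitors passed as higher, with a median of 2.05, and 14 of them did on library totals. Among the subunits, Rel rose by 3.61 and Nfkb1 rose by 3.01 on the log2 scale. Inhibitors that NF-kB itself induces were higher as well. Nfkbia, which encodes IkBalpha, was at 247, 267 and 298 TPM before and at 971, 975 and 1064 TPM after LPS (log2 fold change 2.51, standard error 0.10, adjusted p = 5.02e-07). Nfkbiz, an atypical IkB, went from 9.16, 9.71 and 9.75 TPM to 210.1, 208 and 252 TPM (log2 fold change 5.15, standard error 0.10, adjusted p = 3.3e-08), the largest change of the list. Tnfaip3, which encodes the ubiquitin-editing enzyme A20, rose by 4.05. Immediate early transcription factors were split, with 9 of 17 higher and 6 lower, and 8 and 8 on library totals. Cebpd rose by 3.70 and Batf rose by 3.55, while the AP-1 members Fosl1 and Fosb had log2 fold changes of -2.13 and -2.88.

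All 20 genes of the cytokine list, which includes the receptor gene Cd40, passed as higher, at a median of 5.43 on the log2 scale. On library totals 18 did. Tnf was expressed without treatment, at 163, 163 and 185 TPM before and at 2042, 1959 and 2375 TPM after LPS (log2 fold change 4.26, standard error 0.11, adjusted p = 1.12e-07). Cytokine genes such as Il6 were close to absent before LPS, while others of the list, as Ebi3 at 43.0, 42.5 and 50.5 TPM before and at 106, 134 and 151 TPM after LPS and Tnfsf9 at 19.0, 17.5 and 24.8 TPM before and at 20.9, 23.1 and 26.4 TPM after LPS, were not. Il6 went from 0.50, 0.12 and 0.43 TPM to 734, 721 and 1501 TPM (log2 fold change 12.13, standard error 1.05, adjusted p = 9.77e-07). Il1b, whose product inflammasomes process, went from 2.47, 5.92 and 11.9 TPM to 3157, 3293 and 6637 TPM (log2 fold change 9.94, standard error 0.51, adjusted p = 6.34e-06), and Il1a went from 1.66, 1.39 and 3.06 TPM to 1255, 1364 and 3003 TPM. In Il6, Il1b and Il1a, preparation 3 after LPS lay far above both others. Il27, a member of the IL-12 family, was at 441, 493 and 474 TPM after LPS, and Il12b, a subunit of IL-12 and IL-23, at 22.7, 18.2 and 12.5 TPM, where preparation 3 was the lowest. Csf1, the gene of M-CSF, rose by 5.28 and the costimulatory receptor gene Cd40 rose by 6.77 on the log2 scale.

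**Figure D3:**
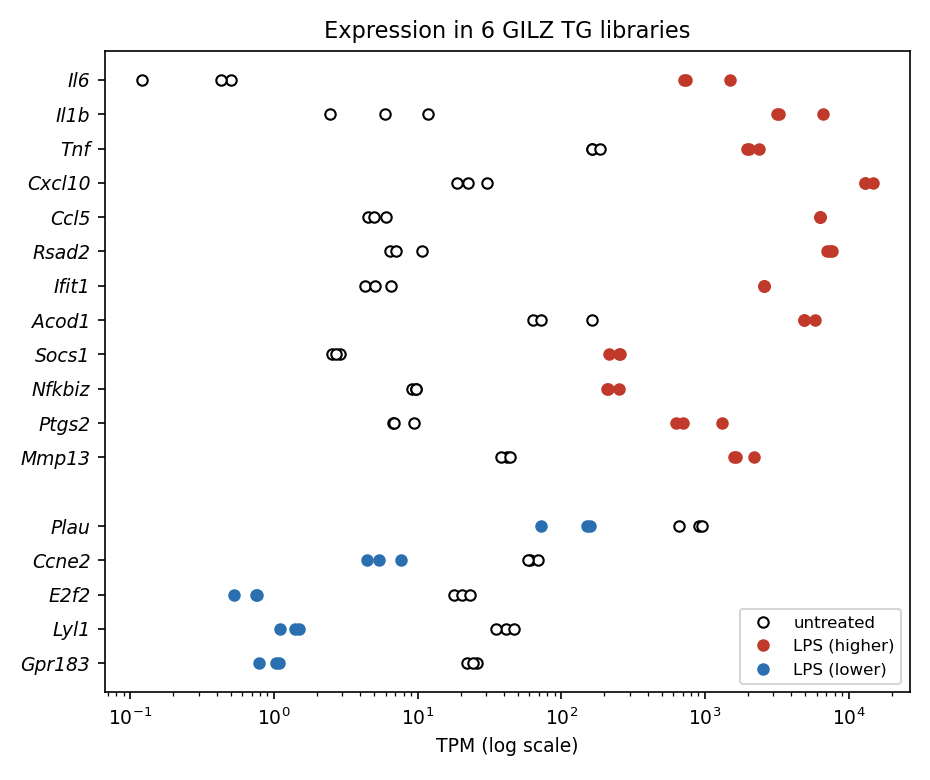
TPM (x axis, log scale) of 17 genes in the 6 GILZ TG libraries, with 1 circle per library, open for untreated and filled for LPS. The upper 12 genes were higher and the lower 5 lower after LPS. Genes were shown only where the groups did not overlap, which held for 82.4% of all genes tested.

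Of 21 chemokine genes, 19 could be tested and 18 passed as higher on both scales, with a median log2 fold change of 5.28. Cxcl10, which draws activated T cells, became the most abundant of them and went from 18.9, 22.4 and 30.2 TPM to 13059, 13059.9 and 14842 TPM (log2 fold change 9.76, standard error 0.17, adjusted p = 4.03e-08). Ccl5 went from 6.08, 4.52 and 4.94 TPM to 6348, 6333 and 6336 TPM, with nearly equal values in all 3 LPS libraries (log2 fold change 10.89, standard error 0.12, adjusted p = 9.65e-09). The monocyte and neutrophil attractants Ccl3, Ccl4, Ccl7 and Ccl2 had log2 fold changes of 5.38, 5.37, 3.63 and 2.76. Cxcl10, Ccl3, Ccl4 and Ccl2 were among the 10 genes with the highest mean TPM after LPS. Cxcl9, which interferon induces, had 1 read over the untreated libraries and 4888 after LPS, a ratio of 6060 with a 95% counting interval from 1090 to 239000, and reached 37.8, 37.4 and 17.3 TPM. Intervals of this kind cover counting error only. Ccl6 did not pass (0.43, adjusted p = 0.0913), but did with the preparation as a block (adjusted p = 9.94e-05). Among 12 receptors for chemokines and other attractants, 8 were higher and 3 lower, and 6 and 3 on library totals. Ccrl2, an atypical receptor, rose by 7.89 and the formyl peptide receptor gene Fpr2 rose by 5.50, while Cxcr4, the receptor of CXCL12, fell by 3.92 and Cx3cr1 fell by 2.68 on the log2 scale.

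Of 29 interferon and antiviral genes tested, 28 were higher and 1 lower on both scales (median log2 fold change 6.03). Ifnb1, the gene of interferon beta, had no read in the 3 untreated libraries and 282, 252 and 118 reads after LPS, or 18.7, 19.7 and 14.9 TPM. Against a floor of 3 reads over the untreated group it was at least 269-fold higher, and at least 172-fold on library totals. Rsad2, which encodes the antiviral enzyme viperin, went from 6.48, 7.03 and 10.8 TPM to 7394, 7132 and 7700.4 TPM (log2 fold change 10.44, standard error 0.19, adjusted p = 5.52e-08). Cmpk2, a nucleotide kinase, rose by 10.08 to 4545, 4168 and 4345 TPM. Ifit1, an RNA-binding antiviral gene that shares reads with related genes, went from 4.31, 5.04 and 6.50 TPM to 2573, 2597 and 2596 TPM (log2 fold change 9.55, standard error 0.14, adjusted p = 1.65e-08). Isg15, a ubiquitin-like modifier, rose by 7.53 and Irf7, an amplifier of the interferon loop, rose by 6.03. Stat2 rose by 4.58, whereas Irf3, whose product is activated as a protein upstream of Ifnb1, fell by 0.55 (adjusted p = 0.000337). All 11 interferon-inducible GTPases passed as higher on both scales, with log2 fold changes from 5.14 to 11.12. Gbp2, a guanylate-binding protein that acts on intracellular bacteria and shares reads with relatives, went from 4.93, 3.67 and 6.99 TPM to 1411, 1356 and 1583 TPM. Iigp1 went from 0.14, 0.09 and 0.19 TPM to 217, 235 and 168 TPM (log2 fold change 11.12, standard error 0.39, adjusted p = 1.66e-08), and Irgm1 rose by 5.22.

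The promoters of Cxcl10, Ifit1 and Nfkbia show letters of the kind that NF-kB, interferon-activated factors and AP-1 are known to bind. They are RefSeq sequences of GRCm38.p6, the 250 bases before the start site along the strand of the gene. Capitals mark matches on either strand to GGANTTTCC (kappaB-like), GAAANTGAA (like an interferon-stimulated response element) or TGACTCA (AP-1). Cxcl10 is shown for the chemokines (chr5:92348890-92349139, minus strand), Ifit1 for the interferon genes (chr19:34640639-34640888, plus strand), where the first 2 matches overlap, and Nfkbia for the inhibitors of NF-kB (chr12:55492648-55492897, minus strand).
Cxcl10: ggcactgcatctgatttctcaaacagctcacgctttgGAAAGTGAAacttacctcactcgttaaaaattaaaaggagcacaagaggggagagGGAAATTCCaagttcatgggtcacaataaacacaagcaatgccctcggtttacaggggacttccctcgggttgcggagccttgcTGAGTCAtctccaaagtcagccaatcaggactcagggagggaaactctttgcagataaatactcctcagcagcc
Ifit1: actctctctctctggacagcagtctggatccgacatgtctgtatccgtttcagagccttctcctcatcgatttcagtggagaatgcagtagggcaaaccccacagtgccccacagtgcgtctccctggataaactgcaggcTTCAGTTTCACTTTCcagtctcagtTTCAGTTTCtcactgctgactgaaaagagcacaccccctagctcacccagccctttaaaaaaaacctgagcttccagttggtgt
Nfkbia: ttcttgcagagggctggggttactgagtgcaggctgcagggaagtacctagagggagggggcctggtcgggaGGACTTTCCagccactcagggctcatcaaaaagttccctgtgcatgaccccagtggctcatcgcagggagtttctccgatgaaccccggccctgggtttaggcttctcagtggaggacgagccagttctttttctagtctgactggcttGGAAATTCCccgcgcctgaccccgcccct

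In promoters from 250 bases before to 50 bases after the start, the kappaB-like letters were present in 2.73% of 1794 promoters of genes at least 2-fold higher, in 0.45% of 1785 promoters of genes at least 2-fold lower and in 1.4% of 12259 promoters of all genes tested. The interferon-like letters were present in 4.57, 0.67 and 1.76% in the same order, and TGACTCA in 5.91, 3.47 and 3.91%. The cAMP response letters TGACGTCA were present in 2.45, 3.14 and 3.03%. Over all 32851 promoters of the table, the shares of the 4 motifs were 1.25, 2.21, 5.2 and 1.79%. Of the 12672 genes tested, 9600 matched a promoter by symbol. A match describes the letters in a window and is not a binding site, and no test was made.

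Genes listed as anti-inflammatory feedback were mostly higher. Of 20 feedback genes, 15 were higher and 4 lower, and 15 and 5 on library totals. Hmox1 of this list went from 1611, 1608 and 1541 TPM to 771, 620 and 690 TPM. Socs1, a suppressor of cytokine signalling, went from 2.55, 2.91 and 2.70 TPM to 255, 253 and 216 TPM (log2 fold change 7.07, standard error 0.11, adjusted p = 1.03e-08), and Socs3 rose by 5.65. Acod1, which makes the metabolite itaconate, went from 64.0, 72.0 and 165 TPM to 4863, 4927 and 5804 TPM (log2 fold change 6.31, standard error 0.34, adjusted p = 7.71e-06). The IL-1 receptor antagonist Il1rn rose by 5.48, Il10 rose by 4.53 and Zfp36, which speeds the decay of cytokine mRNAs, rose by 3.31 on the log2 scale. Dusp4, a MAP kinase phosphatase, fell by 0.65 and Trib1 fell by 0.59, which did not pass without preparation 1 or 2. Without either of these, 2 feedback genes were lower. Glucocorticoid receptor targets and TSC22 family genes did not move as 1 group. Of 16, 9 were higher and 5 lower, with a median of 0.27 that was -0.39 on library totals. The receptor gene Nr3c1 rose by 2.16 and the kinase gene Sgk1 rose by 2.08, while Per1, a clock gene, fell by 1.13. Zbtb16 had 72 reads over the untreated libraries and 1 after LPS, and was lower by a ratio of 58.1 with a 95% counting interval from 10.4 to 2300.

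In the inflammasome list, 14 of 19 genes were higher and 4 lower, and 10 and 7 on library totals. The sensors Nlrp3 and Aim2 had log2 fold changes of 3.10 and 3.36, and the caspases Casp1 and Casp4 of 2.87 and 3.53. Gsdmd, whose product forms the pores of pyroptosis, was at 91.0, 81.4 and 104 TPM before and at 184, 162 and 174 TPM after LPS (1.53, adjusted p = 1.25e-05). The channel gene Panx1 fell by 1.46. Of 21 death receptor and BCL2 family genes, 16 were higher and 2 lower, and 12 and 5 on library totals. The TNF receptor gene Tnfrsf1b rose by 3.87 and Fas rose by 3.20, while Bcl2 fell by 1.64. Without LPS replicate 1 or 2, 1 gene of this list was lower.

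Uptake receptors were mixed, with 14 of 23 higher and 2 lower, but 9 and 9 on library totals. Receptors for antibody-coated particles were among the higher ones, as Fcgr2b rose by 4.44, Fcgr4 rose by 4.06 and Fcgr1 rose by 2.98. Axl, a receptor for dying cells, went from 39.0, 44.4 and 40.6 TPM to 96.9, 115 and 139 TPM (log2 fold change 2.07, standard error 0.14, adjusted p = 8.54e-06), and the scavenger receptor gene Scarb1 fell by 0.56. Without preparation 1, 1 uptake receptor was lower. For antigen presentation, 17 of 19 genes were higher and 0 lower, and 14 and 1 on library totals. Cd274, which encodes the checkpoint ligand PD-L1, went from 9.09, 8.22 and 7.63 TPM to 516, 515 and 484 TPM (log2 fold change 6.54, standard error 0.08, adjusted p = 1.03e-08). The costimulatory Cd86 rose by 4.51 and the peptide transporter gene Tap1, which shares reads, rose by 3.92. The MHC class II gene H2-Ab1 rose by 1.16, but not on library totals (0.50, adjusted p = 0.0919), and H2-Eb1 did not pass (0.70, adjusted p = 0.163), but did with the preparation as a block (adjusted p = 0.00123).

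Nos2, the inducible nitric oxide synthase, went from 0.16, 0 and 0.19 TPM to 327, 338 and 427 TPM (log2 fold change 12.29, standard error 0.65, adjusted p = 1.58e-07). Of the other genes of nitric oxide and arginine metabolism, the arginine transporter gene Slc7a2 rose by 5.32, Gch1, which makes the cofactor of the synthase, rose by 3.20 and Ass1, which rebuilds arginine, rose by 2.65. Srm, which makes spermidine, fell by 1.04, and 2 genes were lower with the preparation as a block or without LPS replicate 2. Of the 12 genes, 6 were higher and 1 lower, and 5 and 5 on library totals. Genes for reactive oxygen were 14 higher and 4 lower of 25, but 8 and 12 on library totals. The oxidase subunit gene Cybb rose by 2.95 and the mitochondrial Sod2 rose by 2.63, while Gclc, for glutathione synthesis, fell by 1.23.

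Most genes of central metabolism moved little. The counts on library totals stand beside 15.1% higher and 68.1% lower over all genes tested. Of 37 Complex I subunits, 10 passed as higher and 0 as lower, with a median of 0.18, but on library totals 0 were higher and 34 lower, with a median of -0.48, so that the direction depends on the scaling. The TCA cycle list had 9 higher and 3 lower of 22, and 1 and 21 on library totals, where the itaconate gene Acod1 was the higher one. In the glycolysis and hypoxia list, 8 of 22 were higher and 2 lower, but 5 and 16 on library totals. Pfkfb3, which speeds glycolysis, rose by 3.26 and Hk2 rose by 1.80. Vegfa went from 29.0, 28.9 and 24.7 TPM to 11.6, 11.2 and 8.93 TPM. Gapdh went from 3172, 3240 and 2875 TPM to 2501, 2536 and 2141 TPM. Of 22 genes for cholesterol synthesis, 7 were higher and 6 lower, and 2 and 13 on library totals. Ch25h, which makes 25-hydroxycholesterol, rose by 5.84, while the late enzyme gene Dhcr7 fell by 1.52. Of 12 LXR target and efflux genes, 6 were higher and 3 lower, and 1 and 6 on library totals. The exporter gene Abcg1 rose by 1.32 and Arl4c fell by 2.84 on the log2 scale. Of 14 prostanoid and leukotriene genes, 3 were higher and 4 lower, and 3 and 10 on library totals. Ptgs2 (COX-2) went from 6.78, 6.83 and 9.38 TPM to 709, 632 and 1312 TPM (log2 fold change 7.47, standard error 0.30, adjusted p = 1.73e-06), again highest in preparation 3, and the prostaglandin E synthase gene Ptges rose by 3.38. Counts of small changes depended on single preparations. Without preparation 1, 4 Complex I, 4 TCA cycle, 3 cholesterol and 3 LXR genes were higher. Without preparation 2, 4 Complex I and 3 TCA cycle genes were higher, and 1 glycolysis and 2 prostanoid genes were lower. Without preparation 3, 18 Complex I genes were higher, with 16 without its LPS library alone and 6 without LPS replicate 1 or untreated replicate 2. TCA cycle genes that were lower numbered 0 without preparation 1 or 2, and 1 without LPS replicate 1, LPS replicate 2 or untreated replicate 2.

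Of 19 genes for matrix proteases and inhibitors, 9 were higher and 3 lower, and 7 and 5 on library totals. The collagenase gene Mmp13 went from 42.2, 38.1 and 43.8 TPM to 1583, 1639 and 2208 TPM (log2 fold change 6.07, standard error 0.15, adjusted p = 1.2e-07), and Mmp14 rose by 4.43. Mmp9, a gelatinase, was at 353, 306 and 161 TPM before and at 406, 329 and 214 TPM after LPS, which overlapped (0.82, adjusted p = 0.0555), and with the preparation as a block the adjusted p was 2.15e-05. Plau, the urokinase gene, went from 916, 958 and 662 TPM to 151, 160.0 and 72.8 TPM (log2 fold change -2.11, standard error 0.27, adjusted p = 0.000305). For adhesion and migration, 14 of 19 were higher and 1 lower, and 11 and 2 on library totals. Icam1, a ligand of leukocyte integrins, rose by 3.64 to 1141, 1164 and 1077 TPM and Vcam1 rose by 5.68. The lower genes of the list numbered 0 without LPS replicate 1 or preparation 1, and 2 without LPS replicate 2, untreated replicate 3 or preparation 3 and with the preparation as a block.

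Transcription factors of the macrophage lineage moved in both directions. Of 17, 8 were higher and 9 lower, and 6 and 9 on library totals. Cebpa, a factor of myeloid development, fell by 3.05 and Pparg, a lipid-sensing receptor, fell by 2.10, whereas Maf rose by 2.39 and Tfec rose by 2.68. Of 22 growth factor receptors and homeostatic genes, 12 were higher and 3 lower, and 7 and 7 on library totals. The G-CSF receptor gene Csf3r rose by 2.77, and the M-CSF receptor gene Csf1r did not pass (-0.04, adjusted p = 0.575), but was lower on library totals (-0.70, adjusted p = 2.32e-05). The lysosomal regulator Tfeb fell by 2.35, while 15 of 25 genes of the lysosome list were higher and 1 lower, but 2 and 17 on library totals. The latter is near the share of all genes that were lower on that scale, 68.1%. Without preparation 1, 9 lysosomal genes were higher, and with the preparation as a block 3 were lower. In the stress response list, 6 of 18 were higher and 7 lower, and 4 and 14 on library totals, with Trib3, a pseudokinase, among the lower (-2.04, adjusted p = 0.000596), which numbered 4 without preparation 2. In the iron list, 6 of 12 were higher and 4 lower, and 4 and 6 on library totals. Ceruloplasmin (Cp) rose by 5.84 and the iron exporter gene Slc40a1 fell by 1.33.

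The cell cycle list had the lowest median of all lists. Of 36 genes, 27 passed as lower and 3 as higher, at a median of -0.83 on the log2 scale, and on library totals 33 and 2. Cyclin E2 (Ccne2) went from 61.0, 69.0 and 58.5 TPM to 5.43, 7.69 and 4.44 TPM (log2 fold change -2.99, standard error 0.15, adjusted p = 1.62e-06), and E2f2, an activator of S-phase genes, went from 17.9, 20.4 and 23.2 TPM to 0.75, 0.76 and 0.53 TPM (-4.47, adjusted p = 1.4e-07). Cyclin D1 (Ccnd1) fell by 1.57 and the ribonucleotide reductase subunit gene Rrm2 fell by 1.68 on the log2 scale. Cdkn1a, which encodes the cell cycle inhibitor p21, went from 415, 450.4 and 486 TPM to 1639, 1412 and 1502 TPM (log2 fold change 2.41, standard error 0.09, adjusted p = 4.66e-07), and cyclin D2 (Ccnd2) rose by 3.39.

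**Figure D4:**
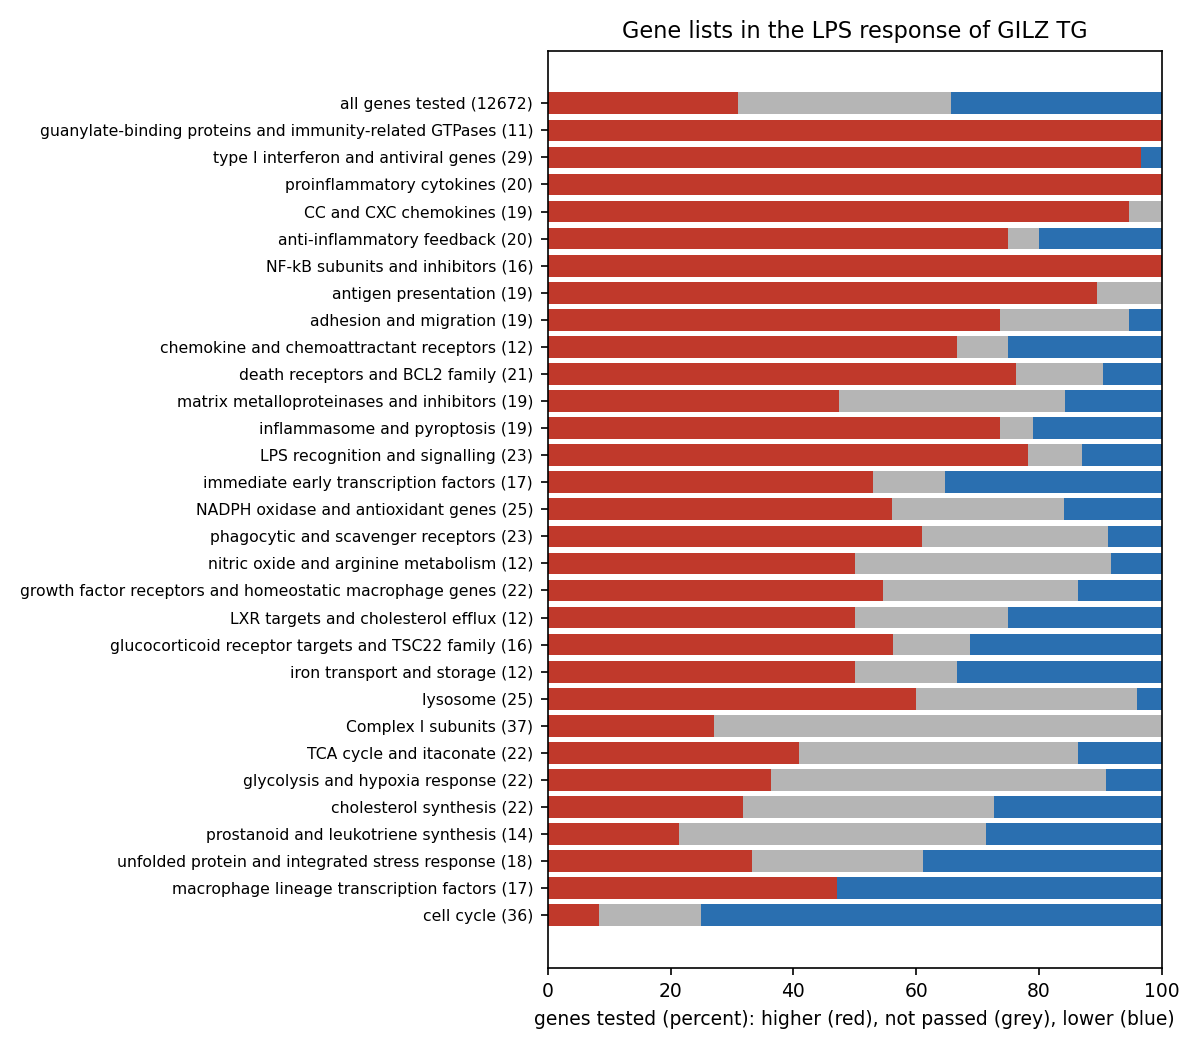
Share of the tested genes of each of 30 lists (x axis, percent) that passed the test as higher after LPS (red), as lower (blue) or did not pass (grey) in GILZ TG BMMs, with the number tested beside the name and lists in order of their median log2 fold change. The top bar is all 12672 genes, of which 31% were higher and 34.2% lower. GTPases, interferon genes, cytokines and chemokines follow it, and the cell cycle is at the bottom.

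Ranked by log2 fold change among genes that passed, did not overlap and had at least 5 TPM in the higher group, the 15 highest were Lipg, Nos2, Il6, Cxcl9, Gm5970, Iigp1, Heatr9, Ifnb1, Ccl5, Gbp2b, Gbp4, Il1a, Rsad2, Shisa3 and Tgtp1. Many of them had almost no reads before LPS. Gm5970 and Heatr9 had 0 reads in the untreated libraries and were at least 401-fold and 292-fold higher against the floor of 3 reads. Lipg, a phospholipase of the lipoprotein lipase family, had 4 reads over the untreated libraries and 17397 after LPS, a ratio of 5390 with a 95% counting interval from 2100 to 19800, and reached 81.9, 81.1 and 119 TPM. The 15 lowest were Zfp395, Fam78a, Tfap4, Cdca7, Ccsap, N4bp3, Depdc7, E2f2, Lyl1, Klhl21, Mnt, Lhfpl2, Rnf227, 2900026A02Rik and Gpr183, from -5.42 to -4.04. Tfap4, a helix-loop-helix transcription factor, went from 7.75, 9.43 and 6.51 TPM to 0.18, 0.16 and 0.13 TPM. Mnt, a partner of MAX that counters MYC, went from 20.1, 17.5 and 17.2 TPM to 0.65, 0.82 and 0.59 TPM, and Myc itself fell by 0.94 on the log2 scale. Lyl1, a haematopoietic transcription factor, went from 41.0, 35.3 and 46.7 TPM to 1.40, 1.50 and 1.11 TPM (log2 fold change -4.30, standard error 0.16, adjusted p = 2.6e-07). Gpr183, a receptor for an oxysterol made from the product of Ch25h, went from 22.2, 25.9 and 24.3 TPM to 0.79, 1.03 and 1.09 TPM (log2 fold change -4.04, standard error 0.13, adjusted p = 1.73e-07).

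Each preparation had 1 untreated and 1 LPS library, so the size of its response has no replicate and differences between preparations were not tested. The number was taken to pair the libraries, which the values did not show for preparations 1 and 2. Treatment separated the libraries on the first principal component, with 85.6% of the variance, and both libraries of preparation 3 lay apart from the other four on the next, with 9.6%. Over the genes at least 2-fold higher, the median log2 ratio of (TPM + 1) within preparations 1 to 3 was 1.08, 1.14 and 1.23. For the interferon list it was 4.3, 4.38 and 4.16, and 22 of 29 genes had their smallest ratio in preparation 3. For the cytokines it was 3.51, 3.7 and 3.63, and 11 of 20 had their largest ratio there. Of the 1852 genes at least 2-fold higher, 917 had their largest and 506 their smallest ratio in preparation 3. Of all 12672 genes, 3863 and 5294 did. The cytokine count lay near that of the higher genes in general. Over all 12672 genes, 2269 had a ratio above 0 and 9128 a ratio below 0 in each preparation on this scale. Preparation 3 also had the lowest sums of fibroblast and neutrophil markers, whose part in these differences was not tested.

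The LPS response of GILZ TG was then set beside that of both other genotypes, in a fit over all 18 libraries with 13169 genes. Against WT it differed for Tsc22d3 alone (0.00759% of the genes), with a difference of 1.43 on the log2 scale (95% interval from 1.09 to 1.77, adjusted p = 0.00139 from edgeR). With the preparation as a block there were 2 genes, as Lyz2 was added. The log2 fold changes of Il6, Cxcl10 and Rsad2 were 12.13, 9.76 and 10.44 in GILZ TG and 11.53, 9.61 and 10.14 in WT. The 95% interval of the difference was from -0.44 to 0.80 for Cxcl10 and from -0.54 to 1.19 for Rsad2, but from -1.99 to 3.22 for Il6, which had few reads before LPS. Of the genes at least 2-fold higher in GILZ TG, 1395 were at 1 TPM or more in all 4 groups, and in 92.5% of them the interval of the difference lay within 2-fold in either direction. For those at least 2-fold lower it was 94.3% of 1126, and over all genes tested 93.7% of 10475, so that these shares are near that of all genes. The minimum of 1 TPM leaves out genes close to absent before LPS, such as Il6. At an unadjusted p under 0.05 the response of 407 genes differed. Leaving out 1 library gave between 1 and 8 genes, with 8 without GILZ TG untreated replicate 3 and 5 without GILZ TG LPS replicate 3.

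Against GILZ KO the response differed for 16 genes (0.121%), and for 144 with the preparation as a block. The count depended on single libraries. It was 0 without GILZ KO LPS replicate 3 or without GILZ TG LPS replicate 2, 1 without GILZ KO LPS replicate 1, 3 without untreated replicate 1 of either genotype, 6 without GILZ TG untreated replicate 2, 49 without GILZ KO LPS replicate 2, 63 without GILZ TG untreated replicate 3 and 81 without GILZ TG LPS replicate 3. The lowest depths of the series, 14583055 and 15491518 reads, were those of GILZ KO after LPS. Among the 16 were the interferon-induced Ifit1, Mx2 and Ifi209, which share reads with relatives and had larger log2 fold changes in GILZ TG. Ifi209 was at 3.41, 3.4 and 3.83 TPM in GILZ TG and 9.34, 7.24 and 7.1 TPM in GILZ KO before LPS. After LPS the genotypes overlapped, at 416, 427 and 472 TPM in GILZ TG and 417, 470 and 459 TPM in GILZ KO. Its difference thus lay in the untreated level. Ifit1 had a log2 fold change of 9.55 in GILZ TG and 8.07 in GILZ KO (difference 1.47, 95% interval from 0.96 to 1.99, adjusted p = 0.0237). Its level in GILZ KO was 16.9, 9.95 and 9.42 TPM before and 2005, 2321 and 2068 TPM after LPS, so that GILZ TG was lower before and higher after without overlap. Mx2 was at 0.61, 0.87 and 1.02 TPM in GILZ TG and 3.01, 1.79 and 1.30 TPM in GILZ KO before, and at 325, 315 and 312 TPM and 235, 267 and 230.3 TPM after LPS (difference 1.69, adjusted p = 0.0258). GILZ KO untreated replicate 1 was the highest untreated GILZ KO library in 17 of 29 genes of the interferon list. It was highest in 6 of 11 GTPases, 11 of 19 chemokines, 8 of 20 genes of the cytokine list and 4 of 16 NF-kB genes. The share over all genes was not counted. The interferon list summed to 1155.9, 1126.3 and 1105.8 TPM in replicates 1 to 3. Single genes differed more, as Rsad2 with 33.0, 14.3 and 10.7 TPM and Ccl5 with 17.1, 5.63 and 5.44 TPM. Without GILZ KO untreated replicate 1 the differences of Ifit1, Mx2 and Ifi209 were 1.14, 1.27 and 0.97. Their adjusted p-values in edgeR were 0.0492, 0.0626 and 0.059, so that Mx2 and Ifi209 no longer passed. Over the interferon list, 27 of 29 genes had a difference above 0, with a median of 0.48 against 0.02 over all genes, and 2 passed the adjusted and 16 the unadjusted threshold. Without GILZ KO untreated replicate 1 the median was 0.38, with 27 of 29 above 0. Over all 13169 genes, 7179 had a difference above 0 and 1306 an unadjusted p under 0.05 in edgeR, the background for this and the following lists. For the 11 GTPases the median difference was 0.68, with 0 past the adjusted threshold in edgeR and 9 at an unadjusted p under 0.05. Other lists lay on the other side of 0. Of the cytokines 6 of 20 had a difference above 0 (median -0.25), of the chemokines 5 of 19 (median -0.22) and of the NF-kB genes 3 of 16 (median -0.09), where 0 passed the adjusted threshold in edgeR in each list and 5, 7 and 3 had an unadjusted p under 0.05. Without GILZ KO untreated replicate 1 these medians were -0.68, -0.29 and -0.08. Of the cell cycle genes 33 of 36 were above 0 (median 0.18). Against WT the medians of the interferon list and the GTPases were 0.06 and 0.1, and those of the cytokines, chemokines, NF-kB and cell cycle genes -0.13, -0.15, -0.01 and 0.08.

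The other genes that differed from GILZ KO had varied roles. Gdf15, a stress-induced cytokine, went from 15.8, 17.5 and 20.4 TPM to 4.23, 2.95 and 3.55 TPM in GILZ TG, and was at 12.2, 11.1 and 14.6 TPM and 7.14, 7.11 and 8.14 TPM in GILZ KO (difference -1.56, 95% interval from -2.05 to -1.07, adjusted p = 0.0229). It was the gene with the smallest p. Jmjd6, Mapk7, which encodes the kinase ERK5, and Hilpda, a lipid droplet protein, had differences of -0.71, -0.58 and -0.75. Syne3, which links the nucleus to the cytoskeleton, Rere and Endod1 had differences of 1.04, 0.86 and 0.46. The remaining 6 were Plk3, Bcl2a1b, Fosl2, Mex3b, Bach1 and Arl4d, of which Plk3, Bcl2a1b and Fosl2 had differences of -1.05, -0.79 and -1.08 and Mex3b and Bach1 of 2.10 and 0.68. At an unadjusted p under 0.05 the response of 1306 genes differed. Among genes at 1 TPM or more in all 4 groups, the 95% interval of the difference from GILZ KO lay within 2-fold in 91.6% of 10477. For the genes at least 2-fold higher in GILZ TG it was 87.3% of 1399, and for those lower 92.0% of 1118. The comparisons with WT and with GILZ KO share the GILZ TG libraries.

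**Figure D5:**
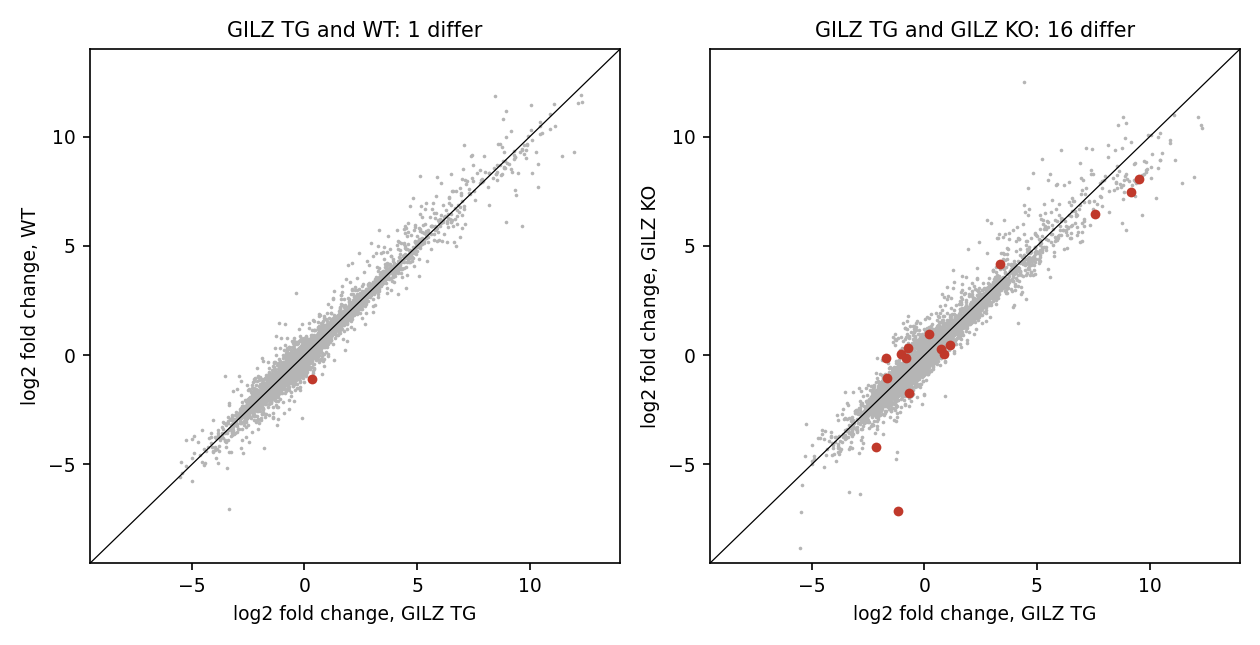
Log2 fold change of LPS against untreated in GILZ TG (x axis) and in WT (left, y axis) or GILZ KO (right, y axis), each from a fit of its own 6 libraries, with 1 point for each gene tested in all 3 genotypes. The line marks equal responses, and red points are genes whose response differed in the fit over all 18 libraries, 1 against WT and 16 against GILZ KO. The lowest red point on the right is Arl4d, which had no reads in GILZ KO after LPS, so that its fitted value is no measure of size.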

How the data were processed

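RNA of BMMs from GILZ TG, WT and GILZ KO mice was sequenced with and without LPS, with poly(A) selection and reads of 75 bases. The authors mapped the reads to GRCm38 and deposited for each library an expected count (an estimated number of reads, not normalized) and TPM for 38887 genes, of which 37570 matched a symbol. The submitters' processing notes name FastQC 0.11.2 and DESeq2 1.40.2. The authors' deposited comparison tables hold log2 fold changes, p-values and a test score, and were not used here. Reads of genes that resemble each other are split by estimation, and 6.19% of the expected counts of GILZ TG are not whole.

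Expected counts were rounded, filtered with filterByExpr, which kept 12672 genes, scaled by TMM and tested with edgeR 4.0.16 in R 4.3.3 with treatment as the only factor. Differences between genotypes were tested as interactions over all 18 libraries. Standard errors were computed from the fit's information and the quasi-dispersion. Depth sets the precision, with 20757976 to 38557029 reads per GILZ TG library. With 3 against 3 libraries, an exact permutation test of a single gene cannot go below 0.1. Same-numbered untreated and LPS libraries deviated together from their group means, with correlations of 0.301, 0.455 and 0.641, each above 0.1, so the number was taken to pair them. Untreated replicate 1 correlated more with LPS replicate 2 (0.374), and untreated replicate 2 with LPS replicate 1 at 0.305, so that the values set preparation 3 apart and do not tell preparations 1 and 2 from each other. A fit that also holds the preparation is among the alternatives.

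The other alternatives were DESeq2 1.42.0, scaling by the size factors of DESeq2, limma 3.58.1 on TPM with a pseudocount of 1 or 0.1 before the log2, a filter of 5 CPM or none, other library sets, protein-coding genes, a threshold of 0.01 and each replicate left out. Library totals in place of TMM were added after seeing the data. The tests were run on simulated counts, where the share of false calls was higher with the preparation as a block and highest with DESeq2. These counts held no effect of the preparation, unlike the libraries, so they cannot judge the fit with the block. Named genes were Tsc22d3, Lyz2, the 15 highest and lowest genes, for each list the 4 members with the largest change, up to 2 against the majority and up to 2 not passing, up to 10 genes with a different response, and the 10 most abundant after LPS. Further list members were named after their values were seen, and some genes under this rule are not reported here. Members, lists and tests were chosen with earlier results of these data known. Of the listed symbols, Marchf1, Gbp5, Gbp6, Bcl2a1a, Bcl2a1d and Ndufb1 were not matched. Python 3.11.15 and matplotlib 3.10.9 made the plots.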

Additional observations from a re-analysis of the deposited data

Results flagged for a closer look

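The LPS response of GILZ TG differed from that of another genotype by the test of the interaction for the following genes, with differences on the log2 scale. Tsc22d3 had a difference of 1.43 from WT, where it passed in 21 of 21 alternatives. From GILZ KO, the differences were -1.56 for Gdf15, 1.04 for Syne3, 0.86 for Rere, -0.71 for Jmjd6, -0.58 for Mapk7, 0.46 for Endod1, 1.12 for Ifi209, 1.47 for Ifit1, -0.75 for Hilpda, 1.69 for Mx2, -1.05 for Plk3, -0.79 for Bcl2a1b, 2.10 for Mex3b, 0.68 for Bach1, -1.08 for Fosl2 and a fitted 6.22 for Arl4d, which had no reads in GILZ KO after LPS and is no measure of size. Of these 16, Gdf15 passed in the most alternatives (17 of 21) and Mex3b (7 of 20) and Arl4d (8 of 20) in the fewest. Groups of 3 libraries are too small for a test of single outlying samples.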

How the results depend on the processing

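The scaling decided the balance of directions. On library totals 1916 genes were higher and 8624 lower, 1206 at least 2-fold higher and 4275 at least 2-fold lower. With limma on log2(TPM + 1) these were 1950, 8272, 1042 and 2969, and on log2(TPM + 0.1) 1947, 8249, 1222 and 3906. A filter of 5 CPM left 1167 genes at least 2-fold lower, with fewer genes tested. Without single libraries or preparations, 6452 to 8607 genes passed, 3078 to 4190 higher and 3325 to 4417 lower, with 1801 to 1877 at least 2-fold higher and 1560 to 1810 at least 2-fold lower. With the preparation as a replicate block, 9097 genes passed, and none of these counts moved by over 1.5 times.

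The difference from WT counted 2 genes with DESeq2, 2 with limma on log2(TPM + 1), 2 with the replicate block and 1 to 8 without single libraries. From GILZ KO it counted 131 genes with DESeq2, 28 on library totals, 10 with limma on log2(TPM + 0.1), 36 with a filter of 5 CPM, 63 without a filter, 144 with the replicate block and 0 to 81 without single libraries. The cause was not tested.

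Of 146 genes described with values, 131 kept direction and side of the threshold under all alternatives run. Tsc22d3 turned to -0.34 on library totals and -0.24 with limma at both pseudocounts, and Hilpda to -0.45, -0.40 and -0.41 on library totals, log2(TPM + 1) and log2(TPM + 0.1). Depth limits genes with few reads before LPS, whose folds are given as bounds or with counting intervals, and 3 libraries per group limit the differences between genotypes.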
